A study of Mus musculus with 12 samples.

Results

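Runx3, Etv1, Whrn, Pvalb and Heg1 are genes known as marks of proprioceptor identity, and they are 5 of the 54532 genes in the deposited count table. They were picked by name, with the values of the comparison between DAAO and control ganglia known, so their differences between the groups are given as a description, with no p-value. The ganglia were dorsal root ganglia of C57BL/6 mice, and all mice received D-Alanine. The 6 control libraries carry the genotype CDH5-Cre, in which the promoter of the vascular endothelial cadherin gene drives Cre recombinase. The other 6 libraries carry the genotype label DAAO-TGCdh5, which names the D-amino acid oxidase DAAO. This enzyme turns D-alanine into a keto acid with hydrogen peroxide as a by-product. The sample titles of both groups carry Cdh5_Cre. The sources used here give neither the age of the mice nor the number of animals or ganglia behind a library, so any p-value here reflects the spread between libraries, which may be technical. Whole ganglia hold many cell types, and the table cannot show which cells a transcript came from.

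Proprioceptors are the large sensory neurons that innervate muscle spindles and tendon organs and report limb position and force. Neurotrophin-3 from muscle and its receptor TrkC keep them alive and induce Runx3, a Runt-domain transcription factor that consolidates proprioceptor fate in the mouse. Etv1, an ETS-domain factor also called Er81, acts later in their connection to motor neurons and muscle. Whrn encodes whirlin, a PDZ-domain scaffold protein first known from hair cells, Pvalb encodes the calcium buffer parvalbumin, and Heg1 encodes a membrane protein that endothelial cells use at their junctions.

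Among the transcription starts of the 5 genes, 3 are shown because the stretches before them hold the only matches to 2 short motifs. Each motif is a form of the core site of Runt-domain or ETS-domain factors. RefSeq (build GRCm38.p6) lists 8 start sites for these genes, and the 250 bases before each were searched on both strands. Capitals mark ACCACA or its reverse complement TGTGGT (termed the Runt core) and CCGGAA or TTCCGG (termed the ETS core), which do not overlap each other here. Other forms of these sites were not searched.
Runx3, distal start, chr4:135120395-135120644, plus strand: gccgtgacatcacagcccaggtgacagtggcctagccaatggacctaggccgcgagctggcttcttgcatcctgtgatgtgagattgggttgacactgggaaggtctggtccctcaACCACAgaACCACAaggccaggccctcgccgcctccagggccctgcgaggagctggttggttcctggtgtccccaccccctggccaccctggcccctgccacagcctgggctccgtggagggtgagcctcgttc
Etv1, first listed start, chr12:38779832-38780081, plus strand: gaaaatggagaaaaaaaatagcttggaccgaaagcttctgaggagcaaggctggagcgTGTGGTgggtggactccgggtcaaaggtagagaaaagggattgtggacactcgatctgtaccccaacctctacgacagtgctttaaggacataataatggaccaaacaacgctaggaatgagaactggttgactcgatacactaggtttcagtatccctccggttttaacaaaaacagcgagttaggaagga
Pvalb, upstream start, chr15:78206401-78206650, minus strand: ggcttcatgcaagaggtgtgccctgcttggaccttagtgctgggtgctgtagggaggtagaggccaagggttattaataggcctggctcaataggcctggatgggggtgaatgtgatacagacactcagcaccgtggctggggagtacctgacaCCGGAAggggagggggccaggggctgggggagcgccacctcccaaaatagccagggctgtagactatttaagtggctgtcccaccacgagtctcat

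The distal start of Runx3 was preceded by 2 Runt cores, which began 134 and 126 bases before it. The Etv1 start had 1 Runt core, 192 bases before it, and the Pvalb start had 1 ETS core, 96 bases before it. The windows before the single starts of Whrn and Heg1, and before the second starts of Runx3, Etv1 and Pvalb, held neither motif. Of 32851 windows of the same length before all listed mouse starts, 4614 (14%) held a Runt core and 3952 (12%) held an ETS core. In GENCODE M21 the Runx3 window overlaps an exon of the opposite-strand noncoding RNA Gm16225, the Etv1 window lies in an intron of a longer Etv1 transcript, and the Pvalb window overlaps no exon. These matches describe letters only, and no binding was measured.

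Of the 5 genes 4 were lower in the DAAO ganglia and Heg1 was close to the control level. In CPM (read counts scaled to a common library size with TMM factors), the DAAO mean was 23.2% of the control mean for Runx3, 25.4% for Pvalb, 56.9% for Whrn, 62.5% for Etv1 and 96.6% for Heg1. Every DAAO library lay below the control median for each of the first 4 genes. For Heg1, 4 of 6 did. The share of all genes tested with every DAAO library below the control median was not counted. In whole ganglia fewer cells of a type and less RNA per cell cannot be told apart.

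**Figure D1:**
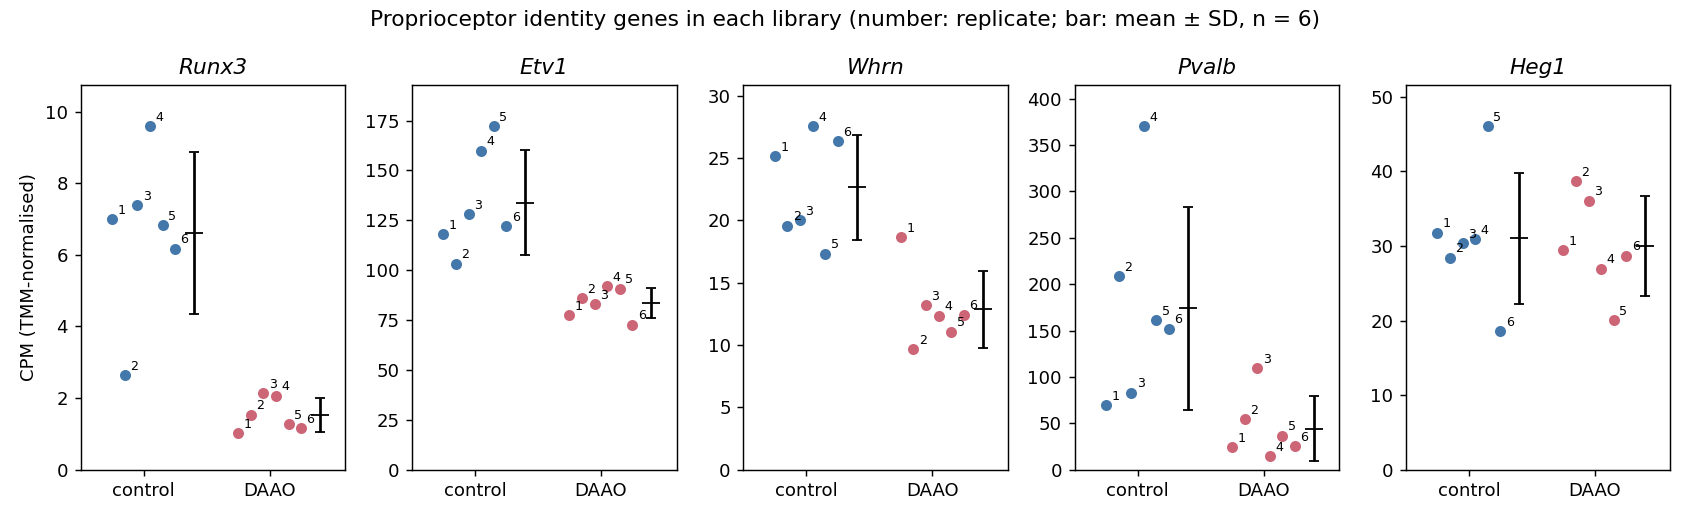
TMM-normalised CPM of the 5 genes in each library, with a linear axis from 0 for every gene. Points are libraries numbered by replicate, and bars are the mean ± SD of 6 libraries; Runx3 and Etv1 show no overlap between groups, and the groups of Heg1 lie over each other.

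Runx3 (ENSMUSG00000070691; chromosome 4, 135120652 to 135177990, plus strand, build GRCm38) was the scarcest of the 5. In the controls it ranged from 2.64 CPM in control 2 through a median of 6.90 to 9.59 in control 4, and in the DAAO libraries from 1.02 in DAAO 1 through 1.40 to 2.13 in DAAO 3. The groups did not overlap, although control 2 lay far below the other controls, next to the highest DAAO library. These levels rested on 49 to 205 reads per control library and 16 to 38 per DAAO library. The fitted log2 fold change, DAAO minus control, was -2.10 ± 0.33 (SE, n = 6 per group), and it was -2.27 without control 2. The antisense gene Gm16224 lies within Runx3 and had 6 reads in all 12 libraries together, against 911 for Runx3.

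Etv1 (ENSMUSG00000004151; chromosome 12, 38779380 to 38870484, plus strand) was more abundant and less variable. Its control values ran from 103 CPM in control 2 through 125 to 172 in control 5, and its DAAO values from 72.7 in DAAO 6 through 84.5 to 91.9 in DAAO 4. Here too the lowest control stood above the highest DAAO library. The SD was 19.7% of the mean among controls and 8.97% among DAAO libraries. Its log2 fold change was -0.68 ± 0.13 (SE).

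Whrn (ENSMUSG00000039137; chromosome 4, 63414910 to 63495991, minus strand) ranged from 17.3 CPM in control 5 through 22.6 to 27.6 in control 4. In the DAAO libraries it ranged from 9.65 in DAAO 2 through 12.4 to 18.7 in DAAO 1. DAAO 1 alone reached into the control range, while the other 5 lay below every control. Its log2 fold change was -0.82 ± 0.18 (SE), and it was -0.95 without DAAO 1.

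Pvalb (ENSMUSG00000005716; chromosome 15, 78191114 to 78206400, minus strand) spread the most. It ranged from 69.5 CPM in control 1 through 156 to 370 in control 4, and from 14.7 in DAAO 4 through 31.1 to 110 in DAAO 3. Among the DAAO libraries DAAO 3 alone lay above the lowest control. The SD reached 62.8% of the mean among controls and 78.7% among DAAO libraries. The log2 fold change was -1.98 ± 0.55 (SE). It was -1.61 without control 4 and -2.50 without DAAO 3.

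Heg1 (ENSMUSG00000075254; chromosome 16, 33684370 to 33771576, plus strand) stood apart from the other 4. It ranged from 18.6 CPM in control 6 through 30.6 to 46.1 in control 5, and from 20.1 in DAAO 5 through 29.1 to 38.7 in DAAO 2. The DAAO range lay inside the control range. The log2 fold change of -0.05 ± 0.19 (SE) was smaller than its error, and it was 0.08 without control 5 and 0.05 without DAAO 5. No difference in Heg1 was detectable at this spread, which does not show that its level was equal.

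The threshold of 0.05 on edgeR's adjusted p, over 17002 genes, was passed by 3 of the 5 genes, Runx3, Etv1 and Whrn, all lower. Of all genes tested 0.753% passed it in either direction and 0.247% passed it as lower. Groups that did not overlap, with DAAO lower, were seen for 2 of the 5 genes and for 0.529% of all genes tested. The genes were chosen from this contrast, so these shares are printed side by side and nothing is read from them. With 1 library left out in turn, Runx3 passed the threshold in 12 of 12 fits, Etv1 in 9 and Whrn in 3. These fits reuse the contrast that chose the genes, so they describe the calls and lend them no support. Without the 5 libraries with both Xist and Y-linked transcripts, a fit that also holds fewer samples, 0 of the 5 genes passed.

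Levels of different genes were compared per length, as CPM per kilobase of the gene length in the table. In controls the order was Pvalb with 167 ± 105, Etv1 with 10.1 ± 1.99, Whrn with 3.09 ± 0.575, Heg1 with 2.44 ± 0.693 and Runx3 with 1.32 ± 0.453 CPM per kilobase (mean ± SD, n = 6). In DAAO it was Pvalb with 42.5 ± 33.4, Etv1 with 6.29 ± 0.565, Heg1 with 2.36 ± 0.524, Whrn with 1.76 ± 0.421 and Runx3 with 0.306 ± 0.0950 CPM per kilobase. Whrn was above Heg1 in 5 of 6 control libraries and in 1 of 6 DAAO libraries, and their values overlapped in both groups. Heg1 and Runx3 overlapped in the controls, although Heg1 was the higher in 6 of 6 of them. The other neighbours in each order did not overlap.

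Whether the 5 genes varied together from library to library was examined within each group, where the difference that chose them plays no part. Among their 10 pairs, Pearson's r of log2 CPM was positive in 6 pairs in controls and in 4 pairs in DAAO, with medians of 0.18 and -0.03. The highest r was that of Runx3 with Etv1 in both groups, 0.70 in controls (exact permutation p = 0.108, two-sided, n = 6) and 0.56 in DAAO (exact permutation p = 0.250). Spearman's rho of this pair was 0.54 in each group (exact permutation p = 0.297 in each). Without the 2 libraries farthest from the Etv1 median r was 0.94 in controls and -0.33 in DAAO, so the relation in DAAO rests on those libraries. After Benjamini-Hochberg adjustment over the 20 relations the smallest p was 0.912, and no pair passed. Joint variation of the 5 genes among libraries of 1 group was thus not detectable with 6 libraries.

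**Figure D2:**
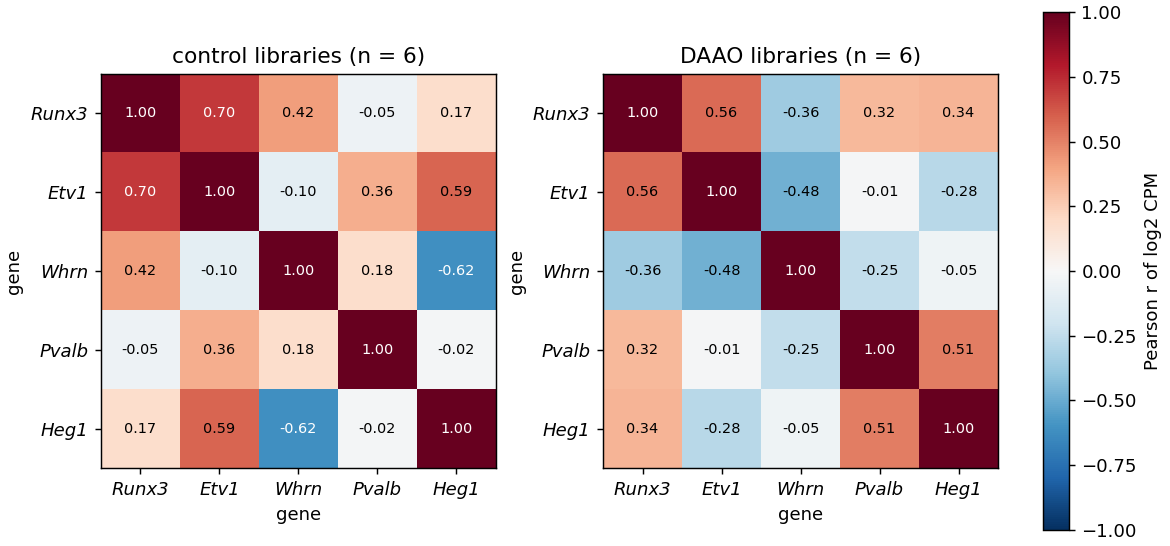
Pearson's r of log2 CPM between each pair of the 5 genes across the 6 control libraries and across the 6 DAAO libraries. Colours run from -1 to 1; Runx3 with Etv1 is the highest pair in both panels (0.70 and 0.56), and no pair passed the adjusted permutation test.

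The ganglia held transcripts of neighbouring tissues in amounts that differed between libraries. The 11 fast skeletal muscle markers, of which 9 passed the filter on low counts, summed to between 13.9 CPM in control 6 and 2870 in control 4, and to between 6.21 in DAAO 4 and 464 in DAAO 3. The sums of the 7 oligodendrocyte markers ranged from 14.1 to 2383 CPM in controls and from 100 to 686 in DAAO. The 10 endothelial markers gave 149 to 202 and 124 to 241 CPM. The 9 pan-neuronal markers gave 8718 to 12307 and 6337 to 10286 CPM, and the 5 defining markers of sensory ganglion neurons 2156 to 4334 and 2254 to 3698 CPM. None of the muscle, oligodendrocyte, endothelial or ganglion markers passed edgeR's test between the groups, nor DESeq2 or limma-voom, and 0, 0, 1 and 0 of them had an unadjusted p under 0.05. Over all 17002 genes tested, 1753 had an unadjusted p under 0.05 by edgeR. All 9 tested muscle markers had negative log2 fold changes (median -2.47), while Myh2 was too low to test and Tnnc2 had 0 counts in every library. In 5 libraries (controls 1 and 2, DAAO 1, 2 and 6) both Xist and the summed counts of 4 Y-linked genes exceeded 10 CPM, and the part of this in the results was not tested beyond leaving those libraries out. Of the libraries left, controls 3, 5 and 6 and DAAO 3 exceeded it for Xist only. Control 4 and DAAO 4 and 5 exceeded it for the Y-linked genes only, so that fit was not balanced in this respect.

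Pvalb was set against the muscle transcripts, since fast muscle fibres contain much parvalbumin. Pearson's r between Pvalb and the mean muscle marker level was 0.80 in controls (exact permutation p = 0.0583, two-sided, n = 6) and 0.91 in DAAO (exact permutation p = 0.0125). Spearman's rho was 0.89 and 0.94 (exact permutation p = 0.0333 and 0.0167). Adjusted over 40 relations of the 5 genes with 4 tissue levels, p was 0.413 and 0.278 for r and 0.333 for each rho, and none passed. Without the 2 libraries farthest from the median muscle level r was 0.46 and 0.77. After the group means were subtracted, 3 genes of striated muscle had the profiles most like that of Pvalb over the 12 libraries, among 13155 genes searched: Tmod4, a cap of actin filaments (r = 0.91), Tcap, the titin cap (r = 0.90), and Mss51, a mitochondrial protein of muscle (r = 0.87).

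Pvalb is given here by muscle content, with a limit of 100 CPM that was chosen after the data were seen. In the 3 control libraries with muscle markers under 100 CPM in sum, Pvalb stood between 69.5 and 152 CPM, and in the 4 such DAAO libraries between 14.7 and 36.7. Those ranges do not overlap, but they hold 3 and 4 libraries, and Pvalb was chosen with this contrast known. Fitted on these 7 libraries alone, the log2 fold change of Pvalb was -1.99 ± 0.34 (SE), and with the muscle level as a term in all 12 libraries it was -1.67 ± 0.29. In the same 7 libraries Runx3 had -2.30 ± 0.39, Etv1 -0.56 ± 0.12, Whrn -0.80 ± 0.22 and Heg1 -0.04 ± 0.21. The part of the muscle transcripts in the difference of Pvalb was not tested.

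**Figure D3:**
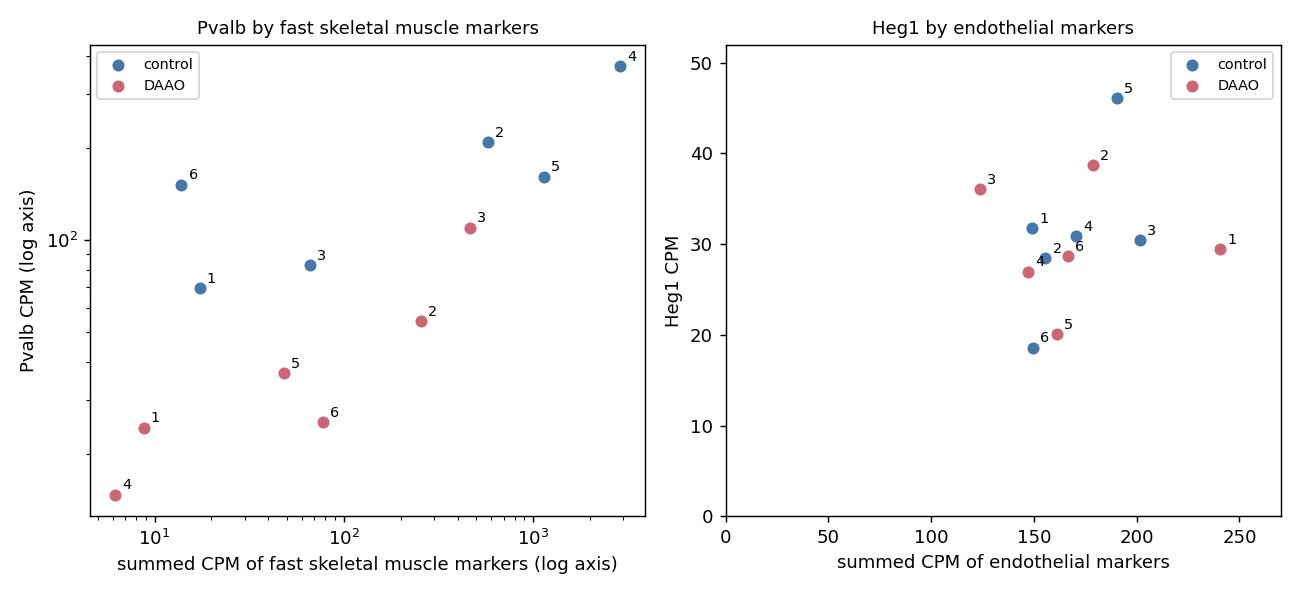
Left, Pvalb against the summed CPM of fast skeletal muscle markers per library, both on log axes; right, Heg1 against the summed CPM of endothelial markers on linear axes. Points are libraries numbered by replicate; at low muscle sums the control libraries lie between 69.5 and 152 CPM of Pvalb and the DAAO libraries between 14.7 and 36.7.

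With the muscle level the other 4 genes had r between -0.49 and 0.56 over both groups (smallest adjusted permutation p = 0.672). Without the 2 libraries farthest from the median muscle level, r for Whrn was -0.91 in controls and -0.93 in DAAO. It was then 0.85 for Heg1 in controls and 0.91 for Runx3 in DAAO, and between -0.38 and 0.42 in the remaining cases. A relation with muscle was thus neither detected nor excluded for these genes. Whrn went with the pan-neuronal level in controls (r = 0.85, exact permutation p = 0.0403, two-sided, n = 6; rho = 0.89, exact permutation p = 0.0333; adjusted p = 0.413) and had r = 0.14 in DAAO (exact permutation p = 0.829). Heg1 went against the pan-neuronal level in DAAO (r = -0.90, exact permutation p = 0.0139; rho = -0.89, exact permutation p = 0.0333; adjusted p = 0.278) and had r = -0.72 in controls (exact permutation p = 0.154). Without the 2 libraries farthest from the median pan-neuronal level r was 0.97 for Whrn in controls and -0.98 for Heg1 in DAAO. Heg1 and the endothelial level had r = 0.57 in controls and 0.04 in DAAO (exact permutation p = 0.253 and 0.943; rho = 0.60 and 0.26, exact permutation p = 0.242 and 0.658). None of these passed the adjustment, and the differences in r between groups were not tested. In a fit that also held the pan-neuronal level, Whrn had a log2 fold change of -0.72 ± 0.18 (SE) and Heg1 of -0.25 ± 0.15, and with the endothelial level as a term Heg1 had -0.03 ± 0.20.

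For the other members the profiles most alike after the group means were subtracted were those of Sppl3, Unc13d and Ckap5 for Runx3 (r = 0.93 each), Slitrk4, Cntn1 and Cd2ap for Etv1 (0.98, 0.95 and 0.93), Pcgf2, Syt3 and Adamts7 for Whrn (0.87, 0.86 and 0.86), and Slc30a4, Med13 and Nr3c1 for Heg1 (0.97, 0.94 and 0.92), each over 12 libraries. No member was among the nearest genes of another. The mean of the 5 standardised genes was most like Taok1, Kcnk18, Brwd3, Diaph2 and Tbl1xr1 (r from 0.88 to 0.90). None of these genes differed between the groups at an adjusted p under 0.05 by edgeR.

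Other genes known from proprioceptors and large-diameter neurons were tested with all genes. Of the 9 on that list 1 fell and none rose, against 0.247% lower and 0.506% higher over all genes tested, and the median log2 fold change was -0.36, against 0.00 over all genes. Calb1, the calcium buffer calbindin (ENSMUSG00000028222; chromosome 4, 15881264 to 15908064), fell from 61.8 ± 6.87 to 34.8 ± 9.69 CPM (mean ± SD, n = 6), or by -0.83 ± 0.16 on the log2 scale (SE; edgeR's adjusted p = 0.0202). Its groups did not overlap, with a lowest control of 51.0 and a highest DAAO library of 48.9 CPM. Leaving out DAAO 1, 2, 3 or 6 in turn ended the call (edgeR's adjusted p between 0.0583 and 0.0747, log2 fold change between -0.80 and -0.77). Slc17a7, the vesicular glutamate transporter of large sensory neurons, had 94.3 ± 46.3 and 49.0 ± 12.6 CPM (-0.94 ± 0.32 SE, adjusted p = 0.277 by edgeR), and passed without control 2 (-1.13, adjusted p = 0.0153). Nefh, the heavy neurofilament, had -0.64 ± 0.22 (adjusted p = 0.271 by edgeR) and Spp1, osteopontin, had -0.36 ± 0.15 (adjusted p = 0.387). Calb2, calretinin, had -0.55 ± 0.51, and the ion channels Asic2 and Piezo2 and the transcription factor Pou4f3 had log2 fold changes between -0.04 and 0.10. On this list 4 of 9 genes had an unadjusted p under 0.05 by edgeR, against 1753 of all 17002 genes tested. DESeq2 called 2 genes of the list and 362 over all genes. Without controls 2 and 6 edgeR called 3 genes of the list and 648 over all genes.

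The neurotrophin axis, which acts upstream of Runx3 in development, gave no call in its 4 tested genes on all 12 libraries with edgeR, DESeq2 or limma-voom, and 0 of them had an unadjusted p under 0.05. Ntf3, the ligand neurotrophin-3, was below the filter on low counts, with 0.535 ± 0.442 and 0.530 ± 0.727 CPM. Its receptor Ntrk3 (TrkC) had 202 ± 106 and 162 ± 35.9 CPM, with a difference of -0.32 ± 0.32 on the log2 scale (SE; edgeR's adjusted p = 0.831). With 1 library left out it ranged from -0.48 without control 2 to -0.09 without control 4 and was not called. Without controls 2 and 6, the libraries with the highest mitochondrial shares, it was -0.70 ± 0.18 and passed (edgeR's adjusted p = 0.0442). Ntrk2, the TrkB receptor of other sensory neurons, had -0.07 ± 0.12, and Ngfr, the shared p75 receptor, had 0.40 ± 0.22 (adjusted p = 0.910 and 0.583 by edgeR).

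**Figure D4:**
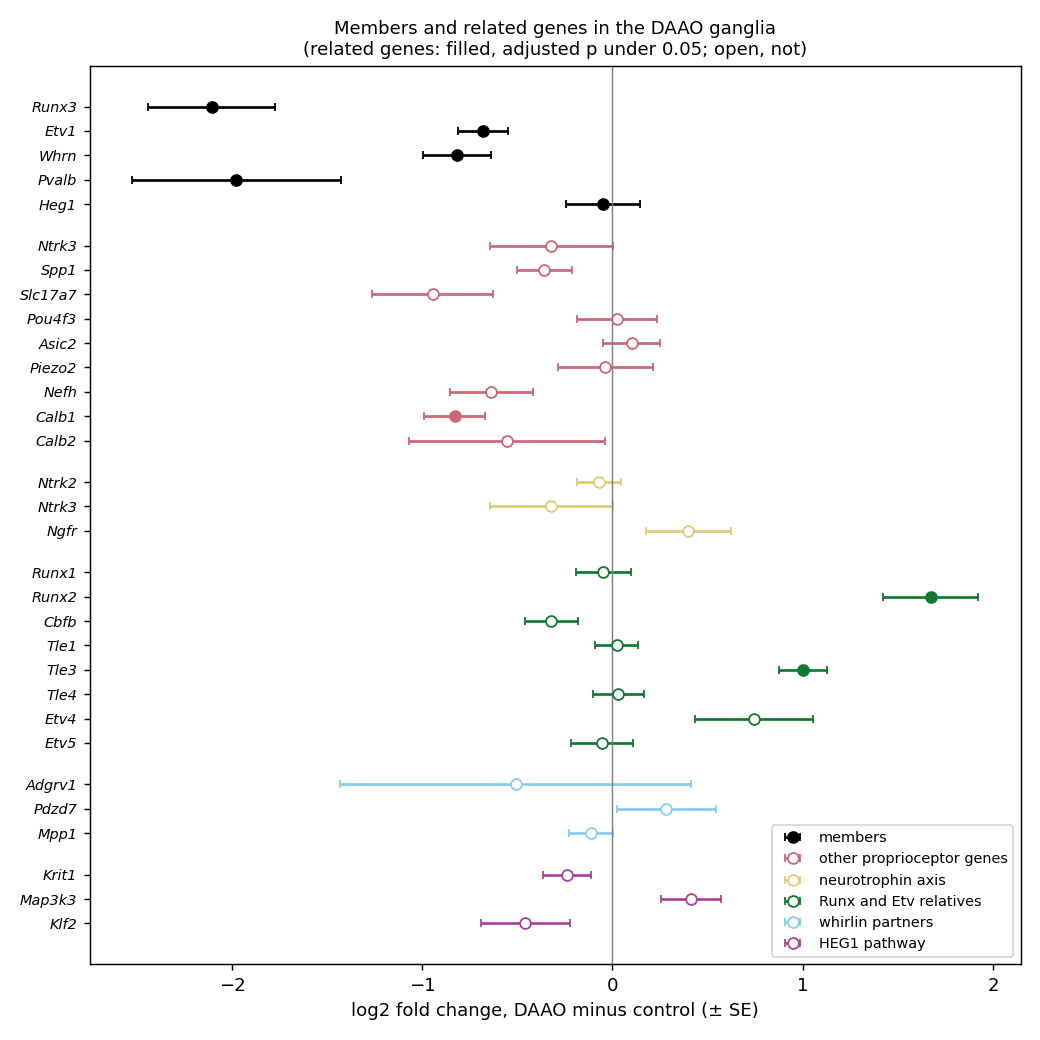
Log2 fold change, DAAO minus control, with SE, for the 5 genes and the related genes named in the text. Filled related genes passed an adjusted p of 0.05 in edgeR; Runx2 (1.67) and Tle3 lie to the right and Calb1 (-0.83) to the left, while Ntrk3, Runx1 and the partners of whirlin and HEG1 are open.

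Among the relatives and partners of Runx3 and Etv1, 2 of 8 rose and none fell, against 0.506% and 0.247% over all genes tested. Tle3, a Groucho corepressor that Runt-domain factors recruit (ENSMUSG00000032280; chromosome 9, 61372366 to 61418497), ranged from 27.4 CPM through 34.8 to 42.1 in controls and from 57.7 through 69.0 to 77.8 in DAAO. It rose by 1.003 ± 0.127 (log2, SE; adjusted p = 0.000844 by edgeR), with no overlap, and passed with any 1 library left out. Runx2, the Runt-domain factor of bone (ENSMUSG00000039153; chromosome 17, 44495987 to 44814797), rose by 1.67 ± 0.25 (adjusted p = 0.00260 by edgeR), from a range of 3.56 to 11.2 to one of 16.0 to 31.9 CPM. Runx2 overlaps Supt3 on the opposite strand (4413 reads in all against 3331, log2 fold change -0.16), and reads of the 2 cannot be told apart without strand. Runx1, the paralog of nociceptors, had 113 ± 25.6 and 109 ± 8.77 CPM, with a difference of -0.05 ± 0.15 on the log2 scale (edgeR's adjusted p = 0.964). Per kilobase Runx1 was above Runx3 in 12 of 12 libraries, with 9.39 ± 2.13 and 9.08 ± 0.729 CPM. Cbfb, the shared partner of the Runx proteins, had -0.32 ± 0.14 (adjusted p = 0.436). The Etv1 relatives Etv4 and Etv5 had 0.74 ± 0.31 and -0.05 ± 0.16 (adjusted p = 0.413 and 0.963 by edgeR), and the corepressors Tle1 and Tle4 had 0.02 ± 0.11 and 0.03 ± 0.13.

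Partners of whirlin and of HEG1 gave no call with edgeR, DESeq2 or limma-voom, and 0 and 1 of them had an unadjusted p under 0.05. Of 7 genes for proteins that bind whirlin 6 were tested, with a median log2 fold change of -0.08. The smallest p belonged to Pdzd7, Mpp1 and Adgrv1 (adjusted p = 0.805, 0.839 and 0.928 by edgeR; 0.28 ± 0.26, -0.11 ± 0.12 and -0.51 ± 0.92). Of the 9 genes of the HEG1 and cerebral cavernous malformation pathway, Krit1, which binds the HEG1 tail, had -0.24 ± 0.13, the downstream kinase Map3k3 had 0.41 ± 0.16 and the flow-responsive factor Klf2 had -0.46 ± 0.23 (adjusted p = 0.554, 0.355 and 0.527 by edgeR).

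Markers of the remaining neurons give the setting. The 12 nociceptor, pruriceptor and C-fibre markers had no call with edgeR, DESeq2 or limma-voom (1 had an unadjusted p under 0.05) and a median log2 fold change of 0.07, with Slc17a8 at 0.54 ± 0.19 (SE, adjusted p = 0.297 by edgeR). Of 5 markers of A-fibre low-threshold mechanoreceptors, 2 fell, Calb1 and Shox2, a transcription factor of these cells (-1.38 ± 0.31, adjusted p = 0.0489 by edgeR). Of the 9 pan-neuronal markers 1 fell, the vesicle fusion protein gene Snap25 (-0.61 ± 0.14, adjusted p = 0.0498 by edgeR). Shox2 and Snap25 each passed with 2 of 12 single libraries left out, control 2 or DAAO 4, and with no other (adjusted p otherwise from 0.0618 to 0.139 and from 0.0547 to 0.166). Shox2 overlaps Rsrc1 on the opposite strand (12231 reads against 2647). Over all genes tested 0.247% fell.

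**Figure D5:**
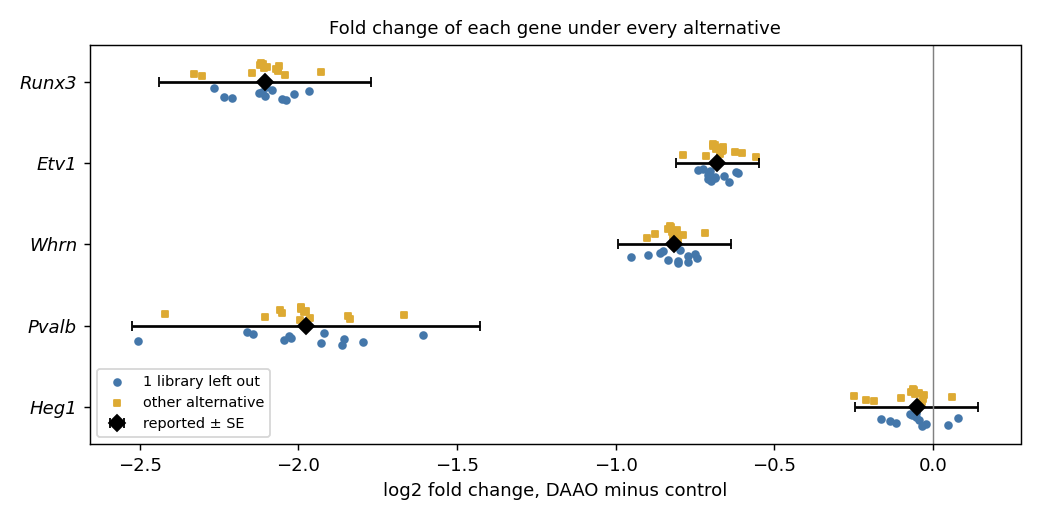
Log2 fold change, DAAO minus control, of each gene as reported (diamond, SE bar), with 1 library left out (circles) and under the other alternatives (squares). Runx3, Etv1, Whrn and Pvalb stay below 0 in all 26 alternatives, and Heg1 lies on both sides of 0.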

How the data were processed

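Total RNA of dorsal root ganglia was sequenced as paired reads, per the labels' protocols. The deposited table holds raw read counts per gene, not normalised, for 12 libraries of 13227518 to 23884927 counts. Per the submitters' processing notes the tools were FastQC, HISAT2 2.0.5 and DESeq2 1.20.0, on a mouse build named as GRCm38 or mm10. The sources used here do not give the counting program or its strand setting, so antisense reads cannot be told apart.

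The member genes, the 13 gene lists and the tests were chosen with earlier results of these data known. Genes were kept with filterByExpr (minimum count 10, minimum total 15), and scaled by TMM. In R 4.3.3, edgeR 4.0.16 gave the two-sided test (quasi-likelihood, robust), on groups only. P-values of all 17002 genes were adjusted together (Benjamini-Hochberg), and 0.05 was the threshold. A log2 fold change is the DAAO level minus the control level, with SE equal to the absolute log2 fold change over the square root of F. The test was checked on simulated data. Correlations used log2 CPM (prior count 2) and all 720 pairings of 6 libraries. A tissue level is the mean centred log2 CPM of its markers. Genes were named where they passed the test, had one of the 3 smallest p-values of their list, or had the profile most like a member (average log2 CPM of at least 1); Calb2, Asic2, Piezo2, Pou4f3, Spp1, Runx1, Cbfb, Etv5, Tle1, Tle4, Ntrk2 and Ntf3 were named after their values were seen, to complete their lists. Some listed genes are counted but not reported here by name. Alternatives were other scalings, DESeq2 1.42.0, limma-voom (limma 3.58.1), other filters, the replicate number as a block, tissue levels as terms and libraries left out; leaving out the muscle-rich libraries was added after seeing the data. All 12 libraries differed by more than sampling noise (chi-square per degree of freedom of at least 19.8). Gene spans in the table equal those of GENCODE M21 for all 5 genes.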

Additional observations from a re-analysis of the deposited data

Results flagged for a closer look

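In 18 groups of 6 libraries (the 5 genes and 4 summed marker lists, in each group), 2 held a library far from the others. Chance gives about 1 in 20 where values are normally distributed. The oligodendrocyte sums of the controls were skewed, with a median of 225 and a mean of 589 CPM, so that rate need not hold for them. Control 2 had an oligodendrocyte marker sum of 2383 CPM, and control 6 had a pan-neuronal marker sum of 12307 CPM. Neither library was a stray by this measure for any of the 5 genes. Control 2 had the lowest Runx3 and Etv1 of the controls, at 2.64 and 103 CPM. The part of the oligodendrocyte transcripts in that was not tested.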

How the results depend on the processing

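Over 26 alternatives the log2 fold change ranged from -2.33 to -1.93 for Runx3, -0.79 to -0.56 for Etv1, -0.95 to -0.72 for Whrn, -2.50 to -1.61 for Pvalb and -0.25 to 0.08 for Heg1. The 128 genes called over all genes became 362 with DESeq2, 648 without controls 2 and 6, 4 without the 5 libraries with both Xist and Y-linked transcripts (4 control and 3 DAAO libraries left) and 28 without the muscle-rich ones; the last 2 also hold fewer samples. With 1 library left out the count ran from 61 (without DAAO 6) to 322 (without control 2). Controls 2 and 6 had mitochondrial shares of 7.44% and 7.65% of counts, against 3.32% to 5.13% in the other libraries. Leaving out control 6 alone gave 125 calls. The cause of the shifts in the count was not tested. Without controls 2 and 6 the neurotrophin axis had 1 call, Ntrk3. Tle3 kept its call in 25 of 26 alternatives, Runx2 in 24 and Calb1 in 20. The direction and the side of the threshold were the same in 815 of 883 fits of the 34 related genes; 38 lost a call, 4 gained one and 26 changed the sign of a change that was not called. The replicate block gave 187 calls (144 higher, against 86 without it). Same-numbered libraries deviated together by r over 0.1 in 2 of 6 pairs, and 3 of 6 libraries correlated best with their own number. These values do not settle whether the numbers are pairs. The labels name no pairing, so the numbers were not taken as pairs. With 1 library left out r stayed between 0.65 and 0.95 for Pvalb with muscle in controls and between 0.85 and 0.96 in DAAO, and the median r over the 10 pairs lay between -0.04 and 0.30 in controls and between -0.19 and 0.17 in DAAO. The lowest library held 16 reads of Runx3.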
